A study of Homo sapiens with 4 samples.

Results

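The genes described here are the protein-coding genes of chromosome 19 whose symbol is ZNF followed by a number and at most 1 letter. They were taken from the deposited gene table by chromosome, biotype and symbol alone. That rule uses no measured value, but it was set with earlier results of these data known. They number 218 of the 28973 genes in the table. Of the 218, the table places 216 in its zf-C2H2 family and 183 carry KRAB in its KO annotation, so the name and the annotation match for nearly all of them. RNA-seq was run on TOV-112D, an established human ovarian cancer cell line. The compared groups were 2 libraries labelled PA, from cells given palmitic acid, a saturated fatty acid, at 200 µM for 24 h, and 2 libraries labelled BSA, from cells given bovine serum albumin as the negative control, with the same 200 µM and 24 h in their labels. The labels conflict: the PA libraries are described as an SPTLC2 knockdown, and the shared treatment text also names shCON and shZDHHC15 cells. PA and BSA are therefore used below as the names of libraries. A difference in construct between PA and BSA cells cannot be told apart from the treatment.

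C2H2 zinc finger proteins bind DNA through a row of small zinc-holding fingers, and the bases that each finger reads are set by a few residues within it. Many of those encoded on human chromosome 19 also carry a KRAB domain, which binds the co-repressor TRIM28. TRIM28 in turn brings in the histone methyltransferase SETDB1 and the HP1 proteins, and many KRAB zinc finger proteins silence transposable elements in this way. The genes arose largely by tandem duplication, which left them in clusters of related copies.

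That history can be read in the transcripts. The 12-base word tggagagaaacc lies in the stretch that links one finger to the next, and it stood in the longest GENCODE 29 transcript of 132 of the 218 genes (60.6%). The share was 27.8% of 245 ZNF genes on other chromosomes, 0.721% of 1110 other protein-coding genes of chromosome 19, and 1.40% of 17414 protein-coding genes. The 218 genes held 624 copies of the word, with the most, 20, in ZNF845. Of 492 copies followed by another in the same transcript, 220 (44.7%) had the next one exactly 84 bases on, which is the length of a finger with its link. A unit of 84 bases is shown for 3 genes named in the results, to show how closely the copies resemble each other. Capitals mark the shared word, and positions count from the first base of the transcript.

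ZNF430: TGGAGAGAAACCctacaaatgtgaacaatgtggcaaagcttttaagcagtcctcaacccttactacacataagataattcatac
ZNF91: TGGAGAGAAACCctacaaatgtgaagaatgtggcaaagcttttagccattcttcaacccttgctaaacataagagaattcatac
ZNF181: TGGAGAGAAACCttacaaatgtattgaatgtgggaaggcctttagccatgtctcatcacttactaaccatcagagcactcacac

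The ZNF430 unit covers transcript bases 949 to 1032, the ZNF91 unit 1073 to 1156 and the ZNF181 unit 953 to 1036. ZNF430 and ZNF91 shared 76 of the 84 bases, ZNF181 and ZNF91 shared 66, and ZNF181 and ZNF430 shared 62. Over whole transcripts, the median gene of the 218 had 3.91% of its 50-base stretches in common with some other gene, and 28 genes had over 20%. Reads from such stretches could have been split between genes in the authors' counting, so values of those 28 are uncertain. Of the 218, 123 overlapped another gene of the table and 84 overlapped one on the opposite strand. The use of strand in counting is not given in the sources used here, so reads of such a pair cannot be told apart.

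Promoters were looked up in RefSeq (GRCh38.p14), as 250 bases before to 50 after the start of a gene, and 162 of the 218 genes had a single entry. The word CCGGAAG, read on either strand, was in 46.9% of those 162 promoters. It was in 36.7% of 150 promoters of ZNF genes on other chromosomes and in 14.3% of 664 of other protein-coding genes of chromosome 19. Of 9847 protein-coding genes with a single entry 17.1% had it. Over all 35116 promoters of the reference, not limited to protein-coding genes or single entries, the share was 10.3%. A second word, AAGATGG, was in 8.02% of the 162, 7.33% of ZNF genes on other chromosomes and 9.04% of the other protein-coding genes of chromosome 19. It was in 7.11% of the 9847 protein-coding genes and 5.84% of all promoters. A match describes the letters only. The promoters of 4 genes that carry CCGGAAG are shown. ZNF430 and ZNF91 were higher in PA than in each BSA library, and the neighbours ZNF302 and ZNF181 were lower. Among other genes named below for being higher, ZNF579 and ZNF324B carry the word, and ZNF71, ZNF77 and ZNF526 do not. Among those named for being lower, ZNF547 and ZNF814 carry it, and ZNF836, ZNF837 and ZNF497 do not. A link between the word and the direction of change was not tested. Capitals mark CCGGAAG as it reads on the printed strand, CTTCCGG.

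ZNF430 (chr19:21020407-21020706, plus strand): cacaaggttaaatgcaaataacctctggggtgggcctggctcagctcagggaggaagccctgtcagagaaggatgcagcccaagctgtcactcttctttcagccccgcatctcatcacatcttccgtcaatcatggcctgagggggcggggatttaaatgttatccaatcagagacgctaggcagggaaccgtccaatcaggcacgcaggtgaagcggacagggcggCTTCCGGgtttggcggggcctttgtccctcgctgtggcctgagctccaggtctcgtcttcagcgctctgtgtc
ZNF91 (chr19:23395422-23395721, minus strand): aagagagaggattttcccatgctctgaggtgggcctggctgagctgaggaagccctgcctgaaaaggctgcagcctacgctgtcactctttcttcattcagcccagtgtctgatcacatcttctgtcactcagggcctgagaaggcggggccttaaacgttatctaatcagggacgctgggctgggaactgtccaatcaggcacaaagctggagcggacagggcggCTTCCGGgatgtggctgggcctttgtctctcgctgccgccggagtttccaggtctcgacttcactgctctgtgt
ZNF302 (chr19:34677428-34677727, plus strand): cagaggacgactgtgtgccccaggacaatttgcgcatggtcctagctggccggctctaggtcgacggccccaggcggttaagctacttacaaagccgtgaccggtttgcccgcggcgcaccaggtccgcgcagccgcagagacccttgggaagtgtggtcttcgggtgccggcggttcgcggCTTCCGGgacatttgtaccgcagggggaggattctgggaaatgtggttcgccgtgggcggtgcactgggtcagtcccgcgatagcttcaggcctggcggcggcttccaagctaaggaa
ZNF181 (chr19:34733993-34734292, plus strand): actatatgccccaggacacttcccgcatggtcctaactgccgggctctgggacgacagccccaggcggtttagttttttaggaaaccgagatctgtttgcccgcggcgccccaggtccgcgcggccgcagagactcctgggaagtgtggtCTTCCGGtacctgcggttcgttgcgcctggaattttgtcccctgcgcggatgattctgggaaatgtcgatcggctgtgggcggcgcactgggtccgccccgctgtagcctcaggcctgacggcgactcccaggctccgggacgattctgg

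The word began 23 bases before the start site in ZNF430, written as -23, and at -24 in ZNF91, -68 in ZNF302 and -100 in ZNF181. At the best ungapped alignment ZNF430 and ZNF91 had the same base at 187 of 299 positions (62.5%), and ZNF302 and ZNF181 at 218 of 291 (74.9%). Across the pairs the values were 31.7% for ZNF430 with ZNF302 and 33.1% for ZNF91 with ZNF181.

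The libraries held 29662410 and 23722074 counts for PA replicates 1 and 2, and 28657038 and 31695944 for BSA replicates 1 and 2. The keratin genes KRT7, KRT8 and KRT18 were at 578 CPM or above in every library, where CPM is the count of a gene scaled to the total of its library. EPCAM, CDH1, KRT19 and WT1, also on the epithelial and ovarian list, were at 1.01 CPM or below. From the same list MUC16 was at 42.9 and 39.8 CPM in PA against 15.9 and 12.2 CPM in BSA, and PAX8 at 6.34 and 7.55 CPM in PA against 2.72 and 5.40 CPM in BSA. Of the other lists, the endothelial CDH5 was at 2.09 and 1.35 CPM in PA against 0.140 and 0.158 CPM in BSA, and the immune CD14 at 1.35 and 1.48 CPM in PA against 0.384 and 1.86 CPM in BSA. Of the fibroblast genes COL1A1 was at 112.2 and 143.4 CPM in PA against 114.0 and 104.8 CPM in BSA, and DCN at 1.15 CPM or below. The part of these markers in the results was not tested. ZDHHC15 had 190083 and 167798 counts in PA against 291 and 225 in BSA, and SPTLC2 had 2194 and 1740 in PA against 1524 and 1080 in BSA, so SPTLC2 was not lower in the libraries described as its knockdown. The BSA replicates stood further from each other than the PA replicates did: the median chi-square per gene was 24.3 between the BSA libraries and 2.03 between the PA libraries, where counting noise alone gives 0.455. For that reason each result is given against each BSA library singly as well as against both.

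The chromosome 19 ZNF genes were expressed at low levels. By the authors' FPKM, which scale counts to gene length and library total, the median gene of the 184 that passed the count filter averaged 1.59 FPKM over the 4 libraries, against 4.85 FPKM for all protein-coding genes tested. Together the 218 genes took 74550 counts in PA replicate 1, 0.251% of its total (95% interval by Wilson's method 0.250% to 0.253%), and 55453 or 0.234% in PA replicate 2 (0.232% to 0.236%). They took 100942 or 0.352% in BSA replicate 1 (0.350% to 0.354%) and 77166 or 0.243% in BSA replicate 2 (0.242% to 0.245%). BSA replicate 1 was the library that stood above the others, and BSA replicate 2 lay between the PA libraries. These intervals cover counting error only. Genes that failed the filter numbered 34, and none of them had more than 17 counts in a library. ZNF682, ZNF536, ZNF625 and ZNF578 had 0 counts in all 4 libraries, which allows up to 0.101 and 0.126 CPM in PA replicates 1 and 2 and up to 0.105 and 0.0946 CPM in BSA replicates 1 and 2 (3 counts per library).

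The edgeR quasi-likelihood test was run with all 4 libraries, and p-values were adjusted over 17449 genes. None of the 184 tested genes passed an adjusted p of 0.05 in either direction, and over all genes the share called was 0% as well. Even ZDHHC15, with a log2 fold change of 9.69, had an edgeR adjusted p of 0.0544 in that fit. A gene that did not pass there is therefore not shown to be unchanged. At an unadjusted p under 0.05, 8 of the 184 were higher in PA and 17 were lower, against 13.1% and 11.2% of all genes, so both shares lay near or under the background. DESeq2 called 2 of the 184 higher and 11 lower at an adjusted p under 0.05, against 6.13% and 4.42% of all genes. The median log2 fold change of the 184 was -0.37, against -0.12 over all genes tested. Because p-values compare only these libraries, and no label says that replicates are separate cultures, they may measure technical spread.

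Against BSA replicate 1 alone most of the genes were lower in PA, and against BSA replicate 2 alone they were not. The median log2 ratio of PA to BSA replicate 1 in CPM was -0.71, with quartiles of -1.35 and -0.16, and 148 of the 184 were below 0 (80.4%, against 56.0% of all genes). The median log2 ratio of PA to BSA replicate 2 was 0.04, with quartiles of -0.40 and 0.57, and 87 were below 0 (47.3%, against 52.9% of all genes). In edgeR fits that left the other BSA library out, 20 of the 184 were called higher and 98 lower against BSA replicate 1, where the background was 28.3% higher and 30.2% lower. Against BSA replicate 2, 54 were called higher and 34 lower, where the background was 26.4% higher and 23% lower. In these fits the spread comes from the PA libraries alone, and the lone BSA library is assumed to vary like them; the fits share the PA libraries.

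Calls that ran the same way in both fits were made for 14 genes in the higher direction, which is 7.61% of the 184 against 16.7% of all genes. In the lower direction there were 21, which is 11.4% against 11.3% of all genes. A further 22 genes were called lower than BSA replicate 1 and higher than BSA replicate 2, which is 11.96% against 4.07% of all genes. The table annotates all 22 with KRAB, as it does 153 of the 184. An example, chosen after its values were seen, is ZNF160, with 21.5 and 22.9 CPM in PA against 56.2 and 14.6 CPM in BSA replicates 1 and 2. The PA values of ZNF160 lay between the BSA values. In CPM without a test, PA was below both BSA libraries for 64 genes (34.8%, background 32.7%) and above both for 23 (12.5%, background 26.5%), and the groups overlapped for the other 97.

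The BSA libraries differed from each other over these genes as widely as PA did from BSA replicate 1. The median log2 ratio of BSA replicate 2 to BSA replicate 1 was -0.80, against -0.02 over all genes, -0.40 over ZNF genes of other chromosomes and 0.41 over the other protein-coding genes of chromosome 19. BSA replicate 2 was over 2-fold lower for 72 of the 184 (39.1%, background 18.8%) and over 2-fold higher for 5 (2.72%, background 7.91%). There is 1 library on each side, so no test was made. PA replicate 2 over PA replicate 1 had a median of -0.17 against -0.02 over all genes, with 7 genes over 2-fold lower (background 3.23%) and 0 over 2-fold higher (background 1.87%). The neighbours on chromosome 19 went the other way from the ZNF genes: their median was 0.29 for PA over BSA replicate 1 and -0.11 for PA over BSA replicate 2. ZNF genes of other chromosomes had medians of -0.51 and -0.10 in those comparisons. Since every ratio uses 1 of the BSA libraries or both PA libraries, the comparisons are not independent of each other.

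**Figure D1:**
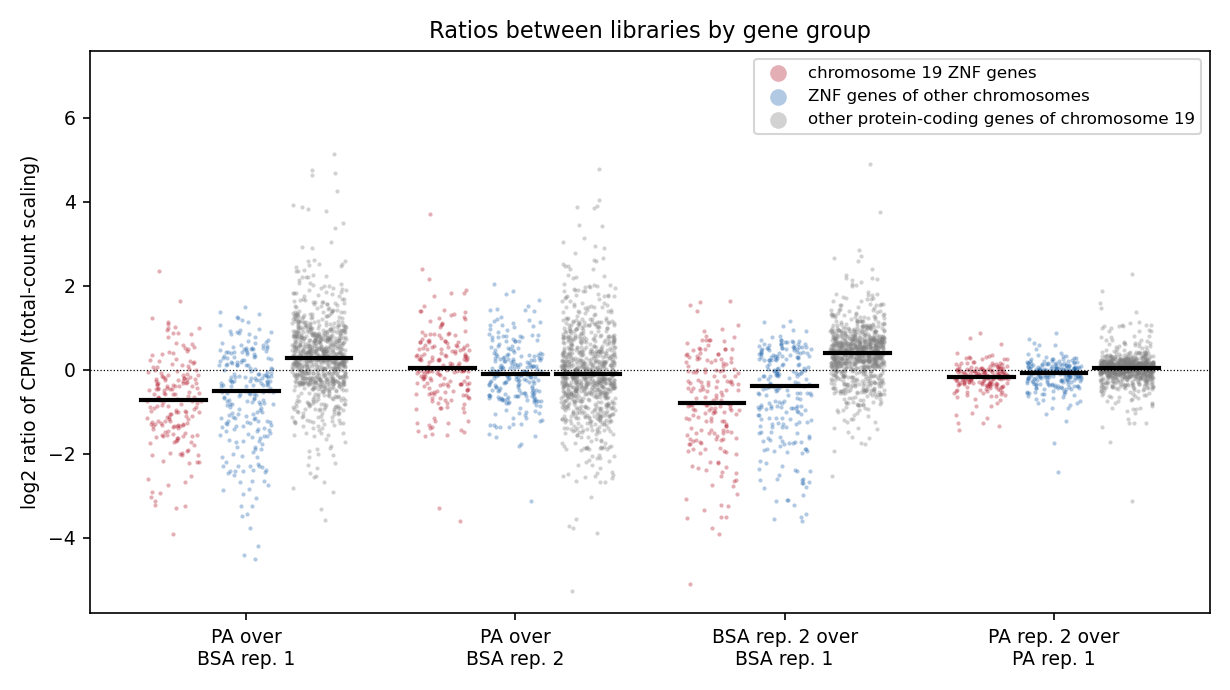
Log2 ratio of CPM (vertical axis) for 4 pairs of libraries or groups, with 1 point per tested gene, in 184 chromosome 19 ZNF genes, 224 ZNF genes of other chromosomes and 857 other protein-coding genes of chromosome 19; black bars are medians. The ZNF genes of chromosome 19 have medians of -0.71 and -0.80 for PA and for BSA replicate 2 over BSA replicate 1, and 0.04 for PA over BSA replicate 2.

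The genes that were higher in PA than in each BSA library included ZNF430 (ENSG00000118620, chr19:21020634-21060050, plus strand, hg38), a KRAB zinc finger gene. ZNF430 was at 28.4 and 26.1 CPM in PA, against 14.8 and 7.70 CPM in BSA replicates 1 and 2. The groups did not overlap, and the lower BSA value was replicate 2. The log2 fold change of ZNF430 was 0.99 ± 0.17 (SE) against BSA replicate 1, with an edgeR adjusted p of 6.3e-08, and 1.89 ± 0.19 against BSA replicate 2, with an edgeR adjusted p of 2.02e-22. With all 4 libraries it was 1.35 ± 0.40, and the edgeR adjusted p of 0.143 did not pass. ZNF91 (ENSG00000167232, chr19:23304991-23395471, minus strand), whose protein is known to silence SVA retrotransposons, was at 58.4 and 48.9 CPM in PA, against 38.1 and 28.3 CPM in BSA. The locus of ZNF91 overlaps ENSG00000267934 on the opposite strand. Its PA and BSA values did not overlap either, with log2 fold changes of 0.60 ± 0.14 and 0.99 ± 0.15 against BSA replicates 1 and 2. The edgeR adjusted p was 7.74e-05 against BSA replicate 1, 1.47e-10 against BSA replicate 2, and 0.18 with all 4 libraries.

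ZNF77 was at 10.5 and 13.9 CPM in PA against 6.25 and 4.92 CPM in BSA. ZNF71 was at 7.75 and 9.32 CPM in PA against 4.26 and 3.82 CPM in BSA. Both had BSA replicates closer to each other than to any PA library. ZNF574 was at 65.7 and 73.0 CPM in PA against 34.2 and 43.8 CPM in BSA, and it overlaps GRIK5 on the opposite strand. ZNF526, which overlaps GSK3A on the opposite strand, was at 48.5 and 55.3 CPM in PA against 24.4 and 34.5 CPM in BSA. ZNF579 and ZNF324B had log2 fold changes from 0.71 to 0.74 against either BSA library. ZNF579 was at 56.9 and 56.8 CPM in PA and 36.7 and 36.4 CPM in BSA, the closest agreement of replicates among these 8 genes.

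Lower in PA than in each BSA library were ZNF302 (ENSG00000089335, chr19:34677639-34686397, plus strand) and its neighbour ZNF181 (ENSG00000197841, chr19:34734155-34745378, plus strand), whose promoters are shown above. ZNF302 was at 8.12 and 6.20 CPM in PA, against 61.8 and 19.5 CPM in BSA replicates 1 and 2. ZNF181 was at 1.45 and 1.31 CPM in PA, against 13.2 and 3.88 CPM in BSA replicates 1 and 2. In both genes BSA replicate 1 was the high library, over 3-fold above BSA replicate 2, and PA was below either. Set against BSA replicate 1 the log2 fold change of ZNF302 was -2.99 ± 0.16, and set against BSA replicate 2 it was -1.38 ± 0.19, with edgeR adjusted p of 1.76e-73 and 7.97e-12. For ZNF181 the values were -3.15 ± 0.26 and -1.42 ± 0.35, with edgeR adjusted p of 1.34e-31 and 0.000156. With all 4 libraries the edgeR adjusted p was 0.114 for ZNF302 and 0.119 for ZNF181. These genes had 11.8% and 11.7% of their 50-base stretches in common with another gene. ZNF181 overlaps ENSG00000274104 on the opposite strand.

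At the end of the chromosome ZNF837, ZNF497, ZNF446 and ZNF814 were also lower in PA, and in these the BSA replicates were close or replicate 2 was the higher. ZNF837 was at 0.438 and 0.169 CPM in PA, against 1.33 and 3.53 CPM in BSA. ZNF497 was at 0.236 and 0.211 CPM in PA, against 1.12 and 2.37 CPM in BSA, and had the smallest unadjusted p of the 184 among lower genes with all 4 libraries (edgeR p 0.0049, adjusted p 0.0892). Both rest on few counts: in PA, ZNF837 had 13 and 4 and ZNF497 had 7 and 5. The antisense gene ZNF497-AS1 had 5 and 4 counts in PA and 22 and 42 in BSA, and it overlaps both, so the signals cannot be told apart. ZNF446 was at 3.71 and 3.79 CPM in PA, against 8.76 and 9.34 CPM in BSA, but 59.1% of its 50-base stretches occur in another gene. ZNF814 was at 6.71 and 6.53 CPM in PA, against 14.9 and 19.3 CPM in BSA, with 27.0% of its stretches shared. ZNF253, ZNF547 and ZNF836 complete the 8 lower genes named by size. ZNF253 was at 3.17 and 2.28 CPM in PA against 10.2 and 6.97 CPM in BSA, ZNF547 at 1.58 and 1.01 against 3.73 and 3.75, and ZNF836 at 0.978 and 0.885 against 6.32 and 2.21. ZNF836 overlaps PPP2R1A on the opposite strand, and ZNF547 overlaps TRAPPC2B on the same strand. ZNF446 overlaps SLC27A5 and ZNF324, and ZNF814 overlaps ZNF587.

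**Figure D2:**
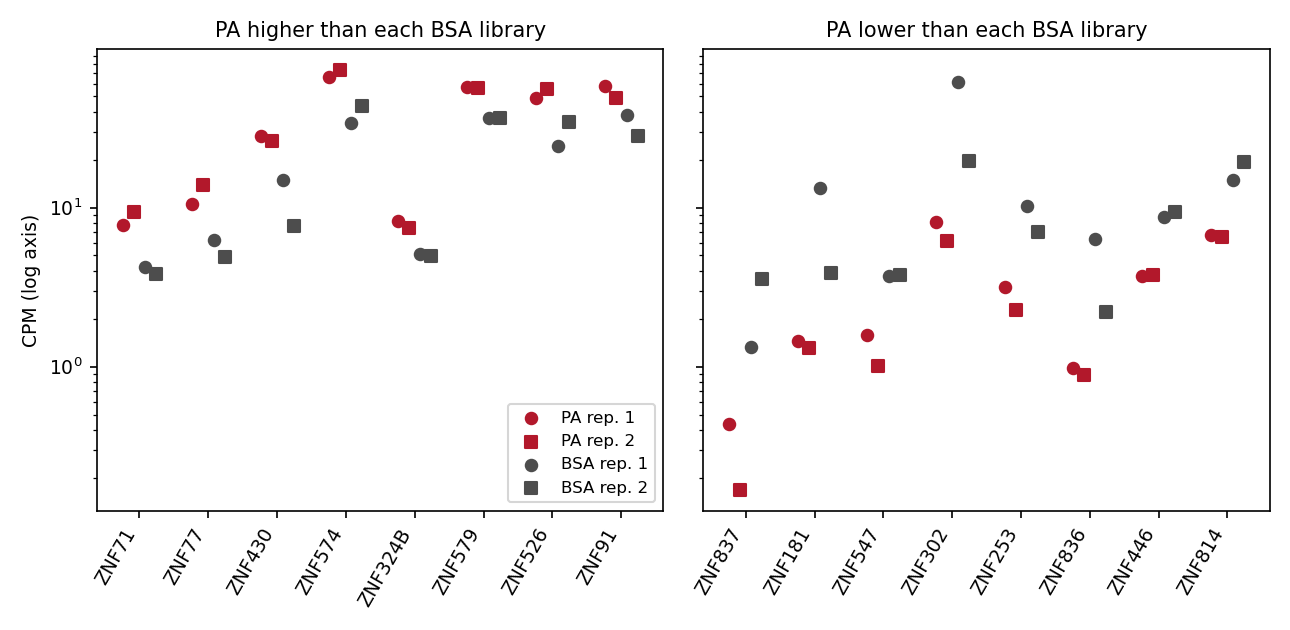
CPM on a log axis in each of the 4 libraries for the 8 genes higher (left) and the 8 lower (right) in PA than in each BSA library, chosen by the size of the smaller of the fold changes against the BSA libraries; circles are replicate 1 and squares replicate 2. PA and BSA do not overlap for any gene shown, which the choice favoured without requiring it, and ZNF302 spreads from 19.5 to 61.8 CPM within BSA.

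The most highly expressed of the genes per length were ZNF787, ZNF146, ZNF581 and ZNF317. ZNF787 averaged 17.5 FPKM, and it was at 56.2 and 56.5 CPM in PA, against 53.2 and 92.6 CPM in BSA replicates 1 and 2. ZNF581 was at 18.3 and 19.98 CPM in PA, against 22.1 and 38.1 CPM in BSA; it overlaps ZNF580 on the same strand. In both genes PA was close to BSA replicate 1 and below replicate 2. ZNF146, which encodes a protein made of fingers with no KRAB domain, overlaps ZNF565 on the opposite strand. It was at 14.7 and 12.5 CPM in PA, against 203.3 and 17.8 CPM in BSA replicates 1 and 2. A single library held nearly all of that difference: ZNF146 had a log2 fold change of -3.79 when set against BSA replicate 1 but -0.32 when set against BSA replicate 2, where the edgeR adjusted p was 0.138. ZNF317 was at 81.8 and 78.8 CPM in PA, against 62.0 and 74.4 CPM in BSA.

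Among genes with a mean of at least 1 CPM, the largest falls of BSA replicate 2 under BSA replicate 1 were in ZNF441, ZNF615, ZNF420 and ZNF146. ZNF441 had 10 counts in BSA replicate 2 and 142 in BSA replicate 1, a log2 ratio of -3.91 (exact 95% interval -5.06 to -3.05, counting error only). ZNF615 had 21 and 266 counts, and ZNF420 had 41 and 433, in BSA replicates 2 and 1. In PA the counts were 31 and 16 for ZNF441, 72 and 51 for ZNF615 and 68 and 39 for ZNF420, so in CPM PA lay between the BSA libraries for these genes. ZNF112 had the widest ratio between the PA libraries, with 24 counts in replicate 2 and 83 in replicate 1, and its BSA libraries had 43 in replicate 2 and 400 in replicate 1. With the same minimum, the largest rises of BSA replicate 2 over BSA replicate 1 were in ZNF554, ZNF784, ZNF837 and ZNF653. ZNF554 was at 19.5 and 15.6 CPM in PA, against 5.62 and 17.6 CPM in BSA replicates 1 and 2, with BSA replicate 1 as the low library.

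Grouped by start position, with a gap of more than 1 Mb between groups, 203 of the 218 genes fell into 9 clusters of at least 5 and 15 lay elsewhere. Cluster 1 (2819868 to 2944971, 5 genes) was the one with positive medians in both comparisons: 0.95 for PA over BSA replicate 1 and 0.66 for PA over BSA replicate 2. Its member with the most CPM was ZNF554. Cluster 8 (51571283 to 53580269, 37 genes, 29 tested) had medians of -1.12 and 0.16, and a median GC content of its transcripts of 41.2%. For PA over BSA replicate 1, 28 of its 29 were below 0 (96.6%, against 80.4% of the 184 and 56.0% of all genes). Its leading gene ZNF331, an imprinted gene, was at 86.1 and 91.8 CPM in PA, against 130.7 and 75.9 CPM in BSA replicates 1 and 2, so PA lay between them. Of the 22 genes with opposite calls, 8 were in cluster 8 (27.6% of its tested genes), 5 in cluster 3 (27.8%) and 5 in cluster 7 (25%), with a background of 4.07%.

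Cluster 3 (11483427 to 12640098, 22 genes, 18 tested) had the lowest median for BSA replicate 2 over BSA replicate 1, at -1.81, and medians of -0.92 and 0.71 for PA over BSA replicates 1 and 2. It also held the lowest single value of the 184, -5.10 in ZNF433, which had 1 count in BSA replicate 2 and 46 in BSA replicate 1. Its leading gene ZNF791 did not share that pattern, with 43.3 and 39.2 CPM in PA against 40.8 and 40.1 CPM in BSA. Cluster 4 (19668796 to 22010949, 20 genes, 15 tested) had a median of -0.16 for BSA replicate 2 over BSA replicate 1, and -0.40 and -0.12 for PA over BSA replicates 1 and 2. The median GC content of its transcripts, 37.5%, was the lowest of the clusters. It holds ZNF430, and its leading gene ZNF431 was at 70.5 and 64.1 CPM in PA against 49.1 and 70.5 CPM in BSA.

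Cluster 5 (34677639 to 34964229, 5 genes), which holds ZNF302 and ZNF181, had medians of -1.33 and -0.67 for PA over BSA replicates 1 and 2, the lowest of any cluster in both. Cluster 6 (36182276 to 37817300, 26 genes, 22 tested) had -1.11 and -0.04, with ZNF875 as the gene with most CPM, at 95.8 and 85.2 in PA against 75.7 and 76.0 in BSA. Cluster 7 (43525497 to 45076478, 23 genes, 20 tested) had -0.85 and 0.35. ZNF45, its leading gene, was at 21.9 and 15.1 CPM in PA against 32.5 and 18.9 CPM in BSA. Cluster 2 (7069703 to 9793180, 15 genes, 13 tested) had -0.88 and -0.20. Cluster 9 (55476617 to 58481230, 50 genes, 44 tested) had medians of -0.27 and -0.06. In both fits 5 of its 44 were called higher (11.4%, background 16.7%) and 8 lower (18.2%, background 11.3%). The clusters differ in GC content and in level, and the part of either in these medians was not tested.

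**Figure D3:**
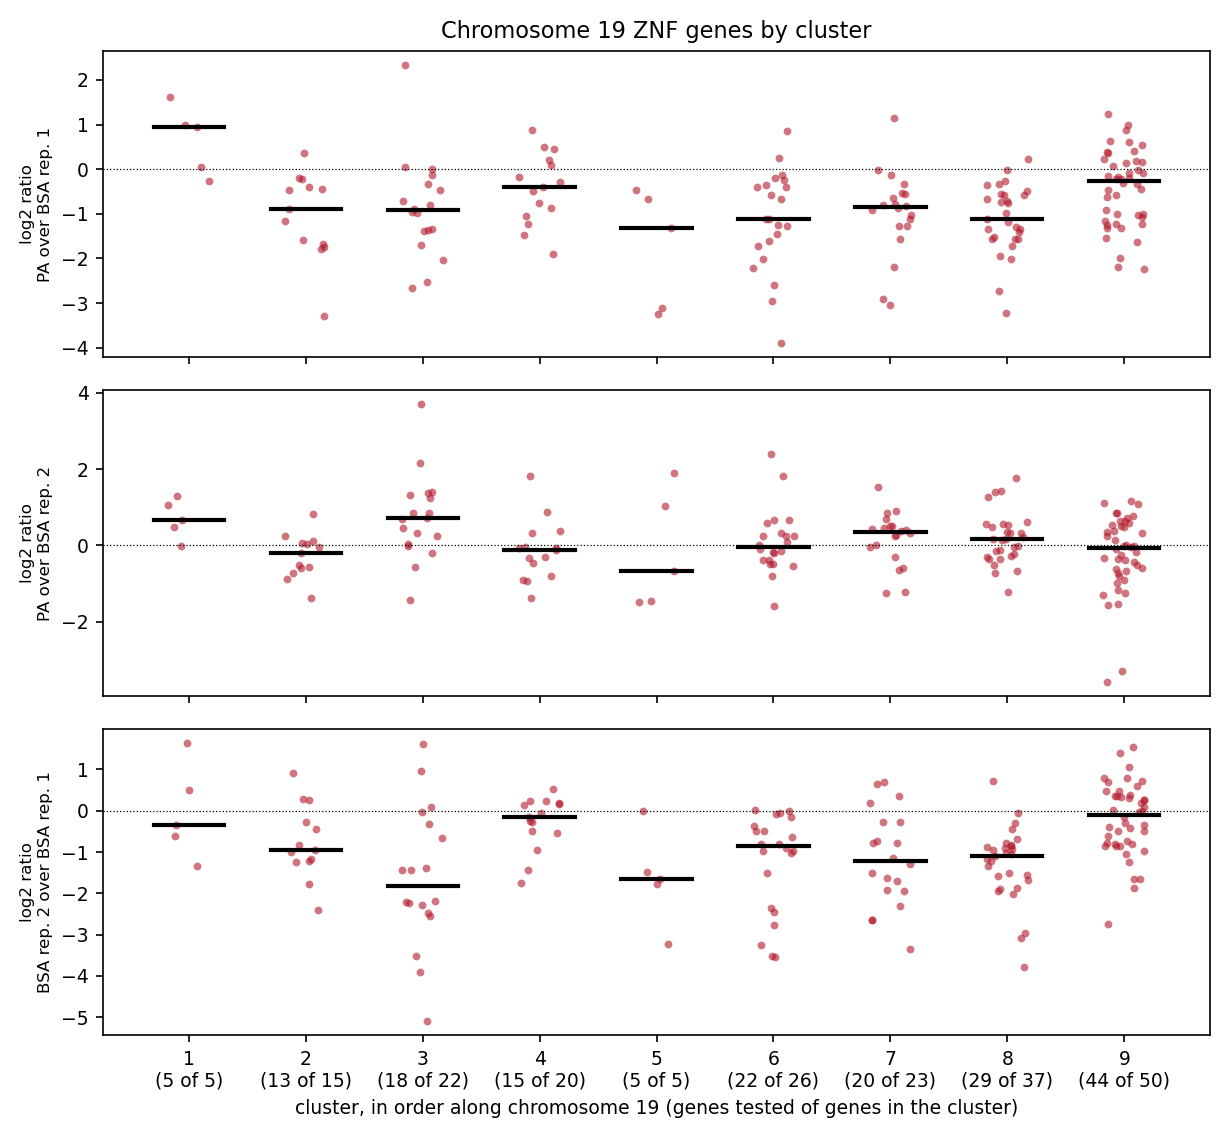
Log2 ratio of CPM (vertical axes) for PA over BSA replicate 1, PA over BSA replicate 2 and BSA replicate 2 over BSA replicate 1, with 1 point per tested gene in each of 9 clusters in order along chromosome 19; black bars are medians and the 15 genes outside clusters are not drawn. Cluster 3 has the lowest median in the bottom panel, -1.81, and cluster 1 the highest in the top panel, 0.95.

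The ratio between the BSA libraries went with the GC content of the transcripts, over all genes as well as these. The median GC content of the longest transcript was 42.5% for the 184 ZNF genes, 45.4% for ZNF genes elsewhere, 60.2% for the other protein-coding genes of chromosome 19 and 49.3% for all genes tested. Genes were split into 5 equal groups by GC content, the lowest from 27.8% to 41.5%. In the lowest group the median log2 ratio of BSA replicate 2 to BSA replicate 1 was -1.41 for 70 chromosome 19 ZNF genes. It was -1.49 there for ZNF genes of other chromosomes and -1.27 for genes in neither ZNF set. In the next group the medians, in the same order, were -0.84 (71 genes), -0.88 and -0.44. In the highest group they were 0.57 (20 genes), 0.48 and 0.36. Across the 184 genes, which share these libraries, Spearman's rho of GC content was 0.50 with the ratio of BSA replicate 2 to BSA replicate 1, 0.42 with that of PA to BSA replicate 1 and -0.08 with that of PA to BSA replicate 2. These are descriptions over genes, which are not replicates.

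With a loess trend over GC content and length removed from the counts of all genes, the median ratio of BSA replicate 2 to BSA replicate 1 was -0.11, in place of -0.80. The median edgeR log2 fold change against BSA replicate 1 was -0.15 with the trend removed and -0.59 without, and against BSA replicate 2 it was 0.00 and 0.13. Calls against BSA replicate 1 then stood at 41 higher and 54 lower (background 30% and 24%), and against BSA replicate 2 at 40 higher and 42 lower (background 24.8% and 25%). With all 4 libraries, 2 genes were called higher, ZNF430 and ZNF675, and 5 lower, ZNF302, ZNF181, ZNF580, ZNF497 and ZNF446, with a background of 5.51% and 2.68%. The edgeR adjusted p was then 0.0237 for ZNF430 and 0.0236 for ZNF302. Cluster 4, which holds ZNF430, stood apart after the trend was removed. Its median for BSA replicate 2 over BSA replicate 1 was 1.19, in place of -0.16. Its median log2 fold change against BSA replicate 1 was 0.87, in place of -0.29. The log2 fold change of ZNF430 with all 4 libraries was 1.97, in place of 1.35. The part of the shift of the cluster in the ZNF430 call was not tested. Cluster 3 remained the lowest for BSA replicate 2 over BSA replicate 1, at -1.07. In cluster 8 the median log2 fold change against BSA replicate 1 was -0.32, in place of -1.02. Its CPM median of -1.12 for PA over BSA replicate 1 compares with -1.19 for genes in neither ZNF set in the lowest GC group.

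The genes annotated with KRAB and the others differed in GC content and in the ratios. The 153 tested KRAB genes had a median GC content of 42.1% and a median log2 ratio of -0.87 for BSA replicate 2 over BSA replicate 1, and the 31 tested without KRAB had 60.7% and 0.36. For PA over BSA replicate 2 the medians were 0.15 with KRAB and -0.58 without. PA was below both BSA libraries for 45 of the KRAB genes (29.4%) and for 19 of the others (61.3%), with a background of 32.7%. The genes without KRAB include ZNF787 and ZNF581, described above, and their levels per length were higher, with a median of 4.81 FPKM against 1.34 FPKM for those with KRAB. The shared word gave a like split, with a median of -1.05 for BSA replicate 2 over BSA replicate 1 in 108 genes with it and -0.11 in 76 without. No test was made of either split.

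**Figure D4:**
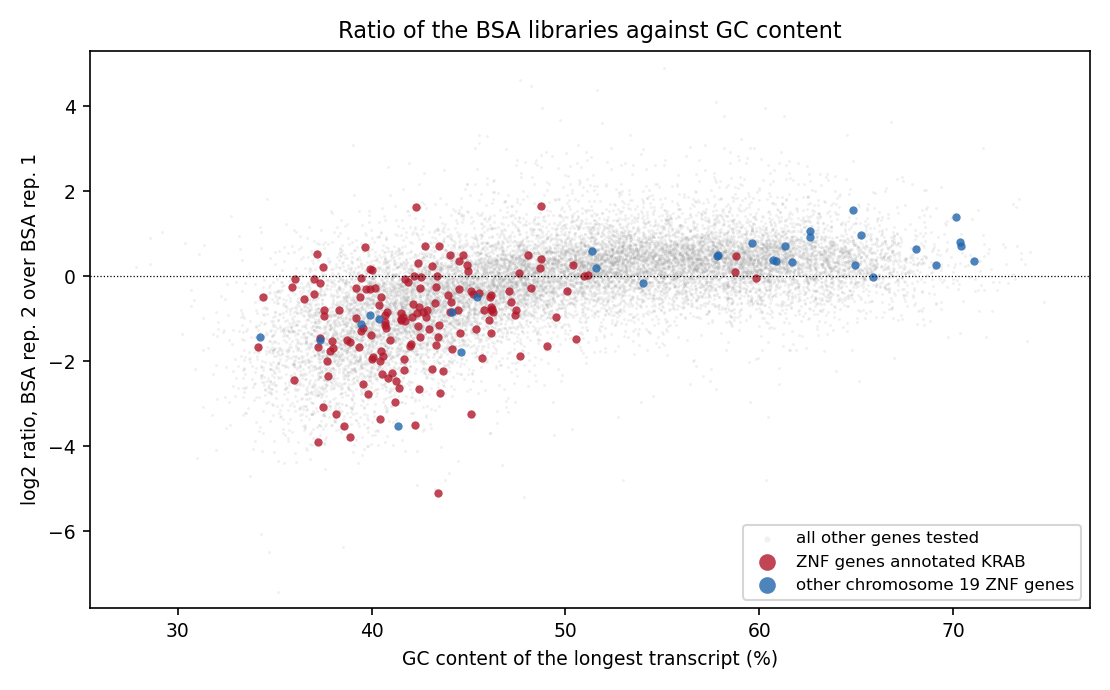
Log2 ratio of BSA replicate 2 to BSA replicate 1 (vertical axis) against GC content of the longest transcript in percent (horizontal axis), for KRAB-annotated and other chromosome 19 ZNF genes and for all other genes tested, with 1 point per gene. The KRAB genes have a median GC content of 42.1% and a median ratio of -0.87, and the others 60.7% and 0.36.

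TRIM28, SETDB1 and other genes of co-repressors and heterochromatin, not only those that KRAB fingers work through, were taken as a list of 35. With all 4 libraries edgeR called 0 of the 35 at an adjusted p under 0.05, where 0% of all genes were called. DESeq2 called 1 of the 35 higher and 8 lower (2.86% and 22.9%, background 6.13% and 4.42%). At an unadjusted p under 0.05, 3 were higher and 11 lower (8.57% and 31.4%, background 13.1% and 11.2%). Against BSA replicate 1, 11 were called higher and 18 lower (31.4% and 51.4%, background 28.3% and 30.2%). Against BSA replicate 2 there were 5 higher and 17 lower (14.3% and 48.6%, background 26.4% and 23%). In both fits 5 were higher and 11 lower (14.3% and 31.4%, background 16.7% and 11.3%). The median log2 fold change was -0.48 with all 4 libraries, against -0.12 over all genes. TRIM28, the co-repressor that KRAB binds, was at 273.4 and 280.0 CPM in PA, against 314.1 and 558.6 CPM in BSA replicates 1 and 2. PA was below both. The fold change against BSA replicate 2 passed, at -0.95, with -0.07 and an edgeR adjusted p of 0.606 against BSA replicate 1. SETDB1 was at 60.7 and 49.3 CPM in PA, against 65.3 and 76.4 CPM in BSA, with log2 fold changes of -0.14 (edgeR adjusted p 0.377) and -0.41 (edgeR adjusted p 0.0045). With the GC and length trend removed the log2 fold changes of TRIM28 were -0.43 against BSA replicate 1 and -0.90 against BSA replicate 2. Those of SETDB1 were -0.47 and -0.54, so both genes were lower in PA than in either BSA library. With all 4 libraries neither gene passed, at an edgeR adjusted p of 0.325 for TRIM28 and 0.467 for SETDB1. Neither passed with the trend removed from all 4 libraries, at an edgeR adjusted p of 0.0995 and 0.136. Among the others, chosen after their values were seen, the HP1 gene CBX3 was at 36.7 and 35.5 CPM in PA against 330.7 and 68.6 CPM in BSA. DNMT3B, a DNA methyltransferase, was higher in both fits, at 75.1 and 80.3 CPM in PA against 21.6 and 33.1 CPM in BSA.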

How the data were processed

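RNA from 4 libraries of TOV-112D cells (2 PA, 2 BSA) was sequenced after a NEBNext Ultra RNA preparation, per the labels' protocols. HISAT2, StringTie, SAMtools and the hg38 build are named in the submitters' processing notes, without versions. For counting, neither an annotation release nor the use of strand is stated. Whole-number counts of reads for each gene were deposited, per the file headers, beside FPKM values that the authors scaled to gene length and library total. Groups were taken from the sample titles.

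Counts were tested in edgeR 4.0.16 (R 4.3.3) with TMM factors, filterByExpr, the quasi-likelihood test and Benjamini-Hochberg adjustment over all genes tested, at a threshold of 0.05. DESeq2 1.42.0 and limma 3.58.1 were alternatives. Each BSA library was also tested alone by leaving the other out, and member counts are over the genes that also passed the filter with all 4 libraries. Ratios between libraries are log2 CPM with 0.5 added to each count and scaling by total count. GC content and length are those of the longest GENCODE 29 transcript, with the trend removed by loess at a span of 0.3; all 218 members and 95.1% of the tested genes had both. Scripts were tested on simulated counts.

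The genes named were, with a mean of at least 1 CPM where ranked by fold: up to 8 per direction called alike against each BSA library, by the smaller fold change; the 4 highest in FPKM; the gene with most CPM in each cluster; the 4 largest rises and falls between the BSA libraries; the 4 smallest unadjusted p-values per direction; the widest ratio between the PA libraries; and TRIM28 and SETDB1. The members and lists were chosen with earlier results of these data known. Besides the co-repressor list, lists of zinc finger genes of chromosome 19 under other names and of antisense genes were counted. Of 12 zinc finger genes under other names, 10 were tested, with ZFP36 higher and ZBTB45 lower in both single-library fits. Of 15 antisense genes 9 were tested. PTPRC, LUM and PDGFRA were not analysed here.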

Additional observations from a re-analysis of the deposited data

How the results depend on the processing

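With all 4 libraries, 0 of the 184 genes were called by edgeR, and also 0 with RLE, upper-quartile or total-count scaling, a minimum of 1 CPM, limma-voom and limma on FPKM with 1 or 0.1 added. The count was 6 of 214 with no filter, where 4.72% of all genes were called. It was 13 of the 184 with DESeq2, against 10.6% of all genes. Once the trend over GC content and length was taken out it was 7, against 8.19% of all genes. With the replicate number as a block it was 1 (3.08% of all genes), and 4 with the block and the trend removal together (7.96%). The numbers are not known to pair the samples: same-numbered libraries deviated from their group means with a correlation of 0.008 over genes. Leaving out 1 library at a time gave 0 to 120 calls, with 88 without BSA replicate 1, 120 without BSA replicate 2 and 0 without either PA library. The median log2 fold change, -0.37, was -0.61 when BSA replicate 2 was left out, 0.13 when BSA replicate 1 was, and -0.30 under the block. Against BSA replicate 1 alone, 118 calls became 81 with DESeq2 and 95 with the trend removed, and the share of them in the higher direction was 43.2% with the trend removed against 16.9%. Against BSA replicate 2 alone, 88 calls became 38 with DESeq2 and 82 with the trend removed, with higher shares of 52.6% and 48.8% against 61.4%.

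The median ratio of BSA replicate 2 to BSA replicate 1, -0.80, was -0.74 with TMM, -0.72 with RLE, -0.78 with 5 added counts, -0.74 on FPKM and -0.11 with the trend removed. That of PA to BSA replicate 1, -0.71, was -0.59 with RLE and -0.29 with the trend removed, and ran from -0.84 to -0.58 when a PA library was left out. That of PA to BSA replicate 2, 0.04, was -0.049 with the trend removed and ran from -0.024 to 0.18 when a PA library was left out. The number of clusters was 9, 10 with a gap of 500000 bases and 6 with one of 2000000 bases. Of 35 named genes, 9 changed direction in the fit of all libraries under some alternative. With 1 library left out, the log2 fold change ran from -0.0014 to 0.56 for ZNF431, -0.70 to 0.042 for ZNF45, -0.45 to 0.29 for ZNF331, -2.39 to 1.51 for ZNF441, -1.91 to 1.85 for ZNF615, -2.82 to 0.68 for ZNF420 and -2.78 to 0.58 for ZNF112, and the sign that differs was without BSA replicate 1. It ran from -0.65 to 0.19 for ZNF787 and -1.09 to 0.50 for ZNF784, where the sign that differs was without BSA replicate 2. ZNF615 was also at 0.33 with the trend removed and the block. The cause was not tested. Depth limits the genes with few counts, such as ZNF497, ZNF837 and ZNF441.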
